A study of Homo sapiens with 42 samples.

Results

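The small nucleolar RNA (snoRNA) host genes of the SNHG type are noncoding genes whose introns carry snoRNAs. Of the 50648 genes listed in all 7 deposited count tables, 10 were taken by symbol: GAS5, SNHG1, SNHG3, SNHG5, SNHG6, SNHG7, SNHG8, SNHG12, SNHG15 and ZFAS1. These 10 were chosen by their levels after L-asparaginase against untreated cells in these same libraries, so differences between treated and untreated cells are given for them as a description. Calls by edgeR in that contrast are printed as part of it, with nothing read from them and no p. All 10 had a row in every table, and all 10 passed the filter on low counts in each fit. Differences between untreated lines played no part in the choice and were tested.

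The libraries came from 7 human acute lymphoblastic leukaemia lines. Nalm6, SUPB15, RS411, REH and 697 are B-precursor lines, and CEM and DND41 are T-cell lines. All were grown in RPMI-1640 with serum and glutamine. Each line gave 3 untreated libraries and 3 libraries from cells exposed for 4 h to L-asparaginase, an enzyme that breaks down asparagine, at 1 IU/ml, which makes 42 libraries of total RNA. Each line is an established culture with no genetic change described in the labels. The labels do not say whether the 3 libraries of a group came from separate cultures, so p-values measure only the spread between libraries, which may be technical.

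As background, a snoRNA guides the chemical modification or the cutting of ribosomal RNA. It is released from an intron of its host, and the spliced host RNA, which holds only short open reading frames, goes to the cytoplasm, where translating ribosomes bring it to nonsense-mediated decay. Many host genes start their RNA with a C followed by a run of pyrimidines, the 5′ terminal oligopyrimidine (TOP) start also found in messenger RNAs for ribosomal proteins and translation factors. Loss of asparagine leaves its transfer RNA uncharged, which slows translation and activates the amino acid response through GCN2 and ATF4. Asparagine synthetase (ASNS) is a target of that response.

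The starts of the host transcripts are shown because a TOP start is known for many snoRNA hosts and was no part of the choice of genes. Each line gives the first 30 bases of an annotated transcript, 5′ to 3′, from the GENCODE 29 transcripts on GRCh38, with the C and the pyrimidines that run on from it in capitals. Of transcripts that begin with a C and at least 4 more pyrimidines, the start shared by most is given. SNHG7 and SNHG15 have none, and the start shown is that of 3 transcripts for SNHG7 and that of 1 of 10 for SNHG15. The start of SNHG6, which 3 of its 5 transcripts begin in this way, is counted and not shown. For SNHG1 the RefSeq start (GRCh38.p14) is given as well.
GAS5: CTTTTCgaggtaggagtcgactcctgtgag
SNHG5: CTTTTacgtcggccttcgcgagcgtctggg
ZFAS1: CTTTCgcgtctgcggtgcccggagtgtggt
SNHG12: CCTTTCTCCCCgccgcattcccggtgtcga
SNHG3: CCTTTTTggagacagattcgcagtggtcgc
SNHG8: CTTTCacattcgggaagcgtcgggattagg
SNHG1: CTCCTgtctgcaggatttacgcgcacgttg
SNHG1, RefSeq start: CTCatttttctactgctcgtggtaagtggc
SNHG7: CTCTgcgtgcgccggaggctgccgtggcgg
SNHG15: agacctgtactccgtactccgtacttcgta

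On GRCh38 these lie at chr1:173867960-173867989 (GAS5, minus strand), chr6:85678704-85678733 (SNHG5, minus), chr20:49278642-49278671 (ZFAS1, plus), chr1:28581844-28581873 (SNHG12, minus), chr1:28506043-28506072 (SNHG3, plus), chr4:118278758-118278787 (SNHG8, plus), chr11:62855450-62855479 and, for the RefSeq start, chr11:62855856-62855885 (SNHG1, minus), chr9:136728155-136728184 (SNHG7, minus) and chr7:44986608-44986637 (SNHG15, minus). Such a start was found in 8 of the 10 genes, in 22 of their 131 annotated transcripts (16.8%). Over the whole annotation 2.41% of 206694 transcripts and 6.58% of 58721 genes had one. A gene with more annotated transcripts has more chances of such a start, and the hosts have up to 29. The transcripts printed for GAS5, SNHG1, SNHG3, SNHG5 and SNHG12 are annotated as keeping an intron. In GAS5 the start CTTTTC was shared by 6 transcripts. The SNHG7 start shared by 3 transcripts, CTCT, has 1 pyrimidine fewer than the count of 4 after the C, and the SNHG15 start begins with a purine. The start in SNHG1 belonged to 1 transcript of 25, and the RefSeq start of that gene leaves the pyrimidine run after 3 bases. These are matches of letters at annotated ends, and no start site was measured in these libraries.

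The promoter windows of RefSeq (250 bases before to 50 after the start, GRCh38.p14) cover 8 of the 10 genes, all but SNHG6 and SNHG15. They were searched on both strands for the letters TGATGNAA, the C/EBP-ATF site through which ATF4 acts, for TGACGTCA, the cyclic AMP response element, and for CACGTG, the E-box. None of the 8 windows held TGATGNAA, which 3.62% of 35116 windows of the same length hold. None held TGACGTCA (1.85% of all windows). Only the SNHG7 window held CACGTG (7.26% of all windows). A window without the letters says nothing about the factor.

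Annotated transcripts differ in how much snoRNA they contain. RefSeq places 36 snoRNA genes within the 10 hosts, 11 in GAS5, 9 in SNHG1, 4 in SNHG12, 3 in ZFAS1, 2 each in SNHG3, SNHG5 and SNHG7, and 1 each in SNHG6, SNHG8 and SNHG15. Exons of GENCODE transcripts of the host overlap 30 of the 36. In GAS5, where 19 of 29 transcripts keep an intron, 7 of the 9 snoRNAs overlapped by an exon are overlapped by intron-retaining transcripts alone, and in SNHG1, with 13 such transcripts of 25, 8 of 9 are. In SNHG7, SNHG8, SNHG15 and ZFAS1 no transcript is annotated as keeping an intron. Exons of their other transcripts still overlap 2 of 2 snoRNAs in SNHG7, 1 of 1 in SNHG8 and in SNHG15, and 1 of 3 in ZFAS1. The deposited values are 1 count per gene, so spliced host RNA, unspliced host RNA and reads from the snoRNA itself cannot be told apart. The 34 hosted snoRNAs looked for by symbol were not analysed here. Which strand was counted is not given in the sources used here. Reads of GAS5 and its antisense neighbours GAS5-AS1 and ZBTB37, of ZFAS1 and ZNFX1, of SNHG12 and TRNAU1AP, of SNHG7 and FAM69B, and of SNHG6 and MCMDC2 cannot be told apart where they overlap. SNHG3 lies within RCC1 on the same strand.

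Depth ran from 15.1 M to 77.1 M counts per library (M is 1000000), with a median of 40.3 M. By the number at 1 CPM (counts per 1000000 counts of a library) or more, the markers fitted the lineages. All 8 B-lineage markers reached this in untreated Nalm6, SUPB15, RS411 and 697, and 7 of 8 in REH. In untreated CEM and DND41 4 of 8 did. The summed B-lineage markers of untreated DND41 (1000 to 1261 CPM) overlapped those of untreated 697 (1023 to 1695 CPM). Their sum thus did not set DND41 apart from the B-precursor lines. Of 9 T-lineage markers, 9 were at 1 CPM or more in untreated CEM and 8 in DND41, against at most 1 in each B-precursor line. In 5 lines (DND41, 697, RS411, Nalm6, SUPB15) the first untreated library, A or in 697 number 1, stood apart. Its differences from the mean of the other two correlated between the 5 lines at 0.58 to 0.85 over 8511 genes, which are not independent replicates. These 5 libraries were set apart in earlier results of these data. The first libraries of REH and CEM and the treated libraries were not compared in this way. Treated library C of SUPB15, A of REH and B of RS411 held transcripts of other lines. They had 14, 12 and 3 genes at 1 CPM or more that had no count in the 5 other libraries of the line and reached 10 CPM in another line, and the other 39 libraries had 0 such genes. Where leaving out one of these 8 libraries changed a call, it is said beside the gene.

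Before treatment the lines differed in most of the host genes, as they did in most genes tested. By edgeR's quasi-likelihood F test over the 21 untreated libraries, 9 of the 10 differed between the 7 lines at an adjusted p under 0.05, beside 81.3% of all 19693 genes tested. Neighbours in the order of the line means differed in 12 of 60 pairs, against 15.5% of such pairs over all genes. Without the first untreated libraries of the 5 lines they differed in 19 of 60, against 19.6% over all genes. The share of the hosts was above that of all genes in both settings, by more without the first libraries. That difference was not tested. Levels below are CPM scaled by TMM, as mean ± SD of 3 libraries. CPM is not divided by transcript length, so levels are compared between lines and not between genes. In RNA from whole cultures, fewer cells that express a gene and less of its RNA per cell cannot be told apart.

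GAS5, known as the growth arrest specific transcript, had the widest span. It stood at 753 ± 104 CPM (n = 3) in 697 and 120 ± 3.41 CPM (n = 3) in DND41, a ratio of 6.29 (log2 difference 2.65 ± 0.13 SE, edgeR adjusted p = 8.77e-13). The order was 697, RS411 (344 ± 40.7), Nalm6 (327 ± 19.9), SUPB15 (258 ± 17.4), REH (197 ± 7.95), CEM (180 ± 8.37) and DND41. RS411 and Nalm6 did not differ beyond their spread, nor did REH and CEM. The other 4 neighbouring pairs did.

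SNHG5, which hosts the SNORD50 pair, had another order of lines. Untreated levels were 219 ± 41.7 CPM in SUPB15, 203 ± 39.7 in Nalm6, 157 ± 3.79 in REH, 122 ± 11.6 in CEM, 77.0 ± 11.1 in DND41, 70.0 ± 9.49 in RS411 and 47.6 ± 8.07 in 697 (SD, n = 3 each). SUPB15 exceeded 697 by 4.55 times (log2 2.19 ± 0.18, edgeR adjusted p = 4.96e-09). The steps from CEM to DND41 and from RS411 to 697 passed the test, and the other 4 did not. The steps from Nalm6 to REH (edgeR adjusted p = 0.000364) and from REH to CEM (0.00257) passed as well without the first untreated libraries. 697, the line with the most GAS5, had the least SNHG5.

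SNHG8, host of SNORA24, was highest in RS411 at 322 ± 106 CPM and lowest in DND41 at 64.8 ± 10.9 CPM (n = 3 each), a ratio of 4.97 (edgeR adjusted p = 1.11e-08). CEM was next at 182 ± 25.4, and the steps from RS411 to CEM and from CEM to 697 (121 ± 15.4) passed the test. SUPB15, Nalm6 and REH followed at 110 ± 11.1, 108 ± 16.8 and 81.6 ± 2.53 without a step that passed. That from Nalm6 to REH passed without the first untreated libraries (edgeR adjusted p = 0.00363), and then the RS411 to DND41 ratio was 5.57. Transcripts of PRSS12, the gene next to SNHG8, were counted in RS411 at 299 to 440 CPM, while REH and 697 had at most 1 count in each of their libraries other than treated REH A, which had 68. The part of this neighbour in the SNHG8 level of RS411 was not tested.

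SNHG7, host of the SNORA17 pair, was highest in Nalm6 (119 ± 34.9 CPM) and fell below all others in DND41 (24.8 ± 5.58 CPM), a ratio of 4.85 (edgeR adjusted p = 6.78e-05), and the neighbouring step that passed with all libraries was the last, from CEM (60.7 ± 1.99). The steps from SUPB15 to REH, then neighbours (edgeR adjusted p = 0.0178), and from REH to CEM (0.0409) passed as well without the first untreated libraries. SNHG6, host of SNORD87, was highest in 697 (404 ± 266 CPM) and lowest in CEM (86.1 ± 19.8 CPM), a ratio of 4.77 (edgeR adjusted p = 1.11e-05) that was 2.92 without the first untreated libraries. No neighbouring step in SNHG6 passed with all libraries, and without the first untreated ones that from RS411 to Nalm6, then neighbours, did (edgeR adjusted p = 0.00883). SNHG15, host of SNORA9, was highest in CEM (67.4 ± 3.26 CPM) and lowest in RS411 (17.8 ± 4.99 CPM), a ratio of 3.78 (edgeR adjusted p = 3.71e-05), with 1 step, from 697 (33.2 ± 16.3) to RS411, past the test. SNHG12, which hosts both box C/D and box H/ACA snoRNAs, ran from 57.5 ± 18.1 CPM in RS411 to 20.3 ± 1.06 CPM in DND41, a ratio of 2.83 (edgeR adjusted p = 5.37e-05), and only its last step passed, which in the fitted order was from REH (33.6 ± 11.1), level with Nalm6 (33.2 ± 5.65). Nalm6 was next to DND41 in the fitted order without the first untreated libraries, and that step passed.

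ZFAS1, host of the SNORD12 family, spanned 2.17 times from 697 (202 ± 46.0 CPM) to DND41 (93.5 ± 13.8 CPM; edgeR adjusted p = 2.97e-05), and with all libraries only the step from 697 to CEM (151 ± 25.2) passed. The last step, from SUPB15 to DND41, passed too without the first untreated ones (edgeR adjusted p = 0.037). SNHG1 was the most even of the genes that differed. It lay between 126 ± 6.73 CPM in Nalm6 and 187 ± 48.5 CPM in 697 (edgeR F test adjusted p = 0.0243), and no neighbouring pair differed. The F test of SNHG1 gave 0.0548 without untreated B of Nalm6. SNHG3, host of the SNORA73 pair (U17) that takes part in the cutting of the 18S ribosomal RNA precursor, did not pass (adjusted p = 0.877, and 0.162 without the first untreated libraries). Its line means ran from 620 ± 249 CPM in DND41 to 1058 ± 544 CPM in SUPB15, and the SD within a line reached 547 CPM in 697.

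**Figure D1:**
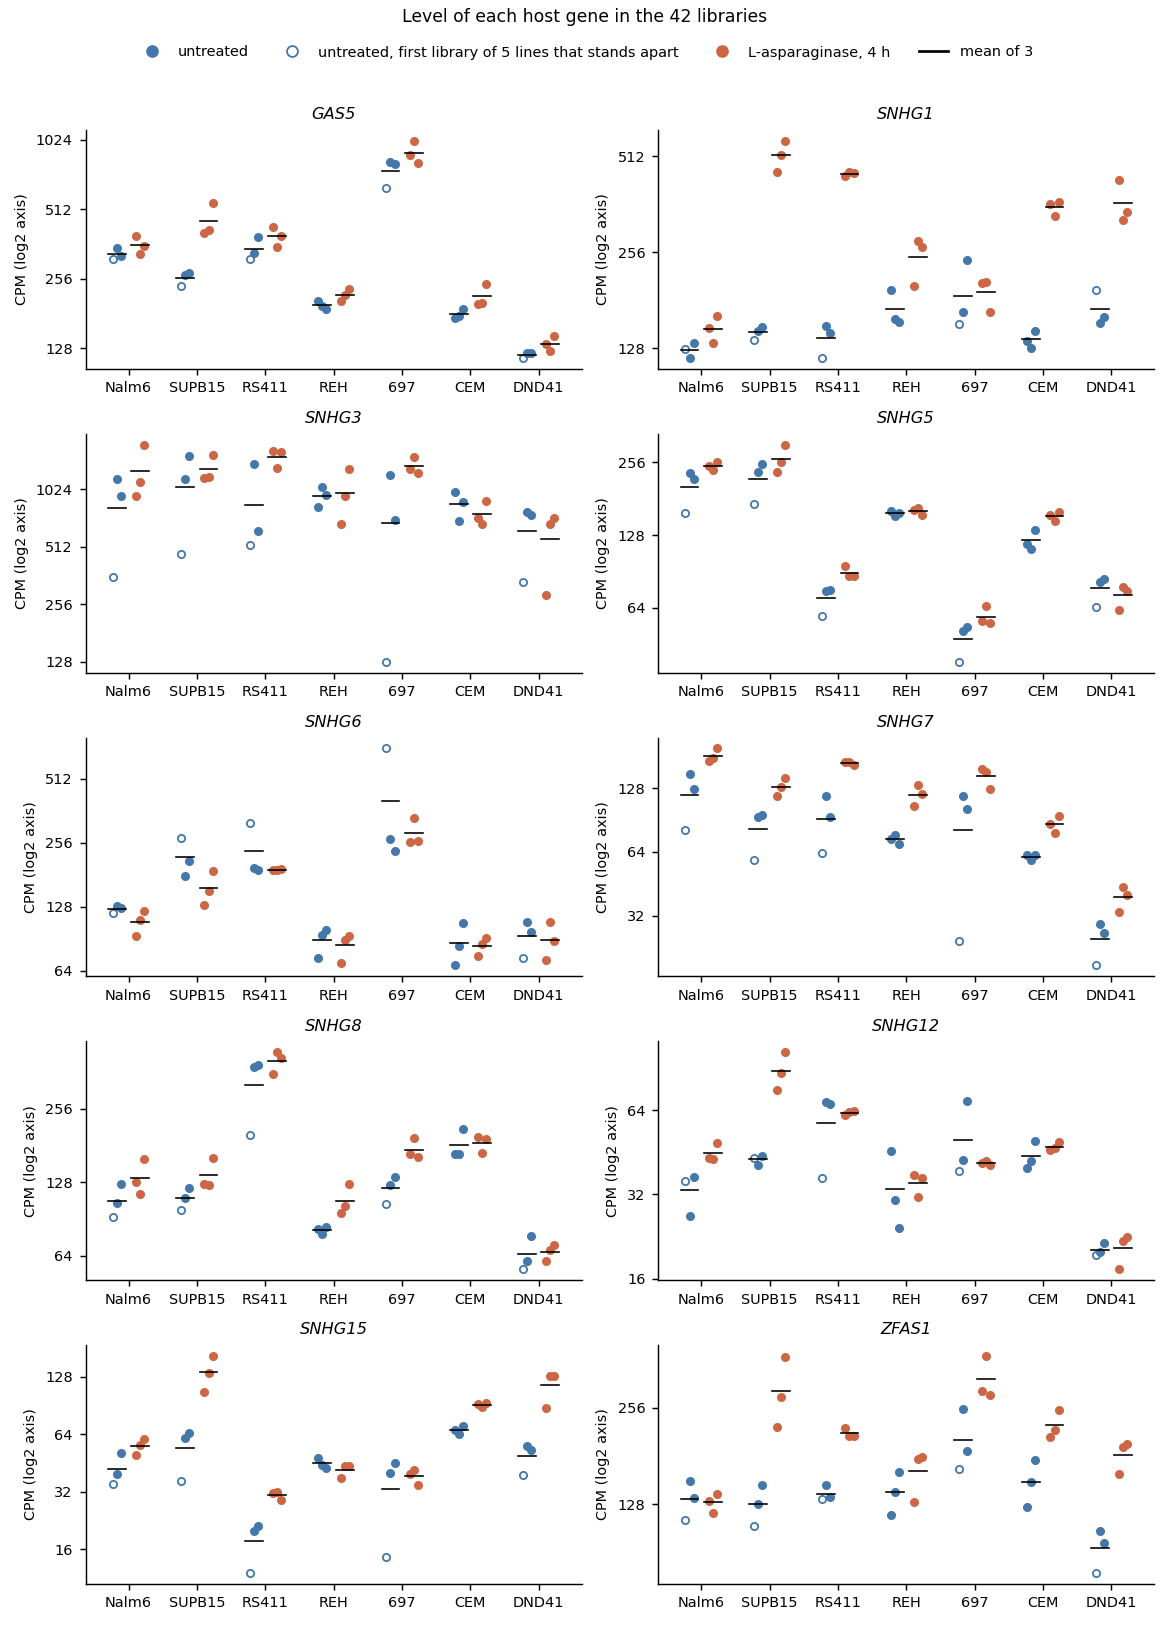
Level of each of the 10 host genes in CPM (log2 axis) in every library, by line, with untreated libraries in blue, libraries treated for 4 h with L-asparaginase in orange, the first untreated library of 5 lines as open circles and the mean of 3 as a bar. SNHG1 shows treated libraries of SUPB15, RS411, CEM and DND41 far above their untreated ones, and SNHG3 shows the open circles far below the other untreated libraries.

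Over the untreated libraries some hosts varied together. These correlations are given as a description over 21 libraries of log2 CPM, 3 of each line, which share the line and its library preparation. SNHG8 and SNHG12 had r = 0.78, GAS5 and SNHG6 had 0.74 and GAS5 and ZFAS1 had 0.74, and they stood at 0.80, 0.81 and 0.76 over the 16 libraries left without the first ones. SNHG6 and SNHG15 were opposed (r = -0.66, and -0.43 over 16). GAS5 and SNHG7 went from 0.52 to 0.77, and SNHG3 and SNHG15 from 0.51 to -0.02. The 5 genes most like the mean of the 10, each standardised, were CHPT1 (r = 0.90), COX5A (0.90), RPS27A (0.89), TRIM25 (0.88) and SPG21 (0.87) among 8479 genes over the 21 libraries, and they stood at 0.83 to 0.86 over 16.

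After 4 h of L-asparaginase, SNHG1, SNHG15, ZFAS1 and SNHG7 were the hosts with the highest mean log2 fold changes over the lines. Calls are at an adjusted p under 0.05 in edgeR on the 6 libraries of a line. Higher calls numbered 3 of 10 in Nalm6 (9.14% of all genes tested there were called higher), 6 in SUPB15 (13.1%), 4 in RS411 (7.87%), 3 in REH (13.5%), 0 in 697 (1.67%), 6 in CEM (19.1%) and 4 in DND41 (15.3%). In 697, 2 hosts were higher at an unadjusted p under 0.05 in edgeR and 0 were called by DESeq2. No host was called lower in any line by edgeR or DESeq2, and at an unadjusted p under 0.05 in edgeR 1 was lower, SNHG6 in SUPB15. Since this contrast chose the genes, nothing is read from these counts. Single libraries moved them. In Nalm6 the count was 0 without any single treated library and 1 without untreated B, in RS411 it was 2 without treated A and 1 without treated B or C, in REH it was 1 without untreated B, and in 697 it was 3 without untreated 1, with SNHG7, SNHG8 and ZFAS1 called. The share of all genes called higher moved as well, to 11.5% in 697 without untreated 1, to between 4.61% and 5.41% in Nalm6 without a treated library and to between 1.49% and 3.71% in RS411. With the replicate letter as a block, ZFAS1 was called in REH as well, and SNHG8 in Nalm6. Without a filter on low counts SNHG12 and SNHG15 were not called in Nalm6, nor SNHG7 in SUPB15.

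SNHG1, which hosts SNORD22 and SNORD25 to SNORD31, held the largest differences. In SUPB15 the untreated libraries stood at 136, 145 and 150 CPM and the treated ones at 458, 517 and 572 CPM. In RS411 they stood at 120, 150 and 142 untreated and 444, 458 and 453 treated. The ratios of the means were 3.59 (log2 1.82 ± 0.13 SE) and 3.29 (1.73 ± 0.11), and both pairs of groups were far apart. The log2 value was 1.75 ± 0.14 in SUPB15 without treated C and 1.71 ± 0.15 in RS411 without treated B.

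The T-cell lines followed for SNHG1. CEM had 135, 128 and 145 CPM untreated and 363, 333 and 368 treated, a ratio of 2.60 (1.39 ± 0.088), and DND41 had 195, 153 and 160 untreated and 431, 324 and 342 treated, a ratio of 2.16 (1.13 ± 0.16). No treated library of these 2 lines came near an untreated one. In REH the values were 195, 158 and 155 untreated and 201, 277 and 267 treated, so the lowest treated library, A, which also held transcripts of other lines, lay just above the highest untreated one. The ratio there was 1.47 (0.59 ± 0.14, and 0.71 ± 0.13 without treated A), and its call was lost without untreated B or treated B.

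Nalm6 and 697 differed little in SNHG1. In Nalm6 it was 127, 119 and 133 CPM untreated and 148, 133 and 161 treated (ratio 1.17, log2 0.25 ± 0.11), and in 697 it was 153, 166 and 243 untreated and 204, 206 and 166 treated (ratio 1.03, log2 0.03 ± 0.22). The groups overlapped in both lines. In the untreated fit SNHG1 lay within 1.47 times across the lines, while treated line means ran from 147 ± 14.3 CPM in Nalm6 to 516 ± 57.0 CPM in SUPB15.

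The same 4 lines had the highest ratios for SNHG15. In SUPB15 it went from 36.3, 61.5 and 64.6 CPM untreated to 106, 134 and 164 treated, a ratio of 2.49 (1.30 ± 0.23). In DND41 it went from 39.3, 55.4 and 52.9 to 88.1, 129 and 129, a ratio of 2.35 (1.26 ± 0.18). In RS411 it went from 12.0, 19.9 and 21.3 to 31.5, 32.0 and 29.1, a ratio of 1.74 (0.81 ± 0.19). In each of these 3 lines every treated library was above every untreated one, and the first untreated library was the lowest, so that the ratios were 2.14, 2.13 and 1.50 without it.

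CEM was higher in SNHG15 by a smaller step, from 67.0, 64.3 and 70.8 CPM to 92.0, 88.7 and 93.7 (ratio 1.36, log2 0.45 ± 0.078), with little spread in either group. Nalm6 stood at 35.2, 39.5 and 51.1 untreated and 49.6, 56.0 and 60.8 treated (ratio 1.32), with overlap, and its call was lost without untreated A or B or any single treated library. In RS411 the call of SNHG15 was lost without untreated B or any single treated library. REH was level at 48.2, 44.2 and 42.8 against 37.6, 43.6 and 43.8 (ratio 0.924). In 697 the untreated libraries were at 14.6, 40.1 and 45.0 and the treated ones at 39.7, 41.7 and 34.6 CPM, and the ratio of 1.16 was 0.909 without the first.

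ZFAS1 was higher in SUPB15, from 109, 128 and 147 CPM to 223, 275 and 369 (ratio 2.25, log2 1.15 ± 0.19, and 0.94 ± 0.17 without treated C). DND41 went from 78.2, 105 and 96.9 CPM to 159, 192 and 197 (ratio 1.95, log2 1.00 ± 0.14). In RS411, CEM and 697 the ratios were 1.54, 1.50 and 1.55, and in each no treated library overlapped an untreated one. The RS411 call of ZFAS1 was lost without treated B or C. In REH the groups overlapped (119, 140 and 161 against 130, 177 and 179 CPM, ratio 1.16), and in Nalm6 the levels were 114, 151 and 134 untreated and 131, 121 and 138 treated (ratio 0.974).

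SNHG7 differed from these in its evenness over lines. Every treated library was above every untreated one in each of the 7 lines, with ratios from 1.43 in CEM to 1.84 in RS411. In CEM the libraries were at 61.9, 58.4 and 61.7 CPM untreated and 87.0, 78.7 and 94.8 treated. In REH, whose first library was not among those set apart, they were at 73.9, 77.4 and 69.5 untreated and 105, 133 and 121 treated. In 697 the untreated values were 24.2, 118 and 103 CPM and the treated ones 158, 154 and 127. Its ratio of 1.79 there became 1.32 without the first untreated library, and over the 7 lines the ratios without that library lay between 1.32 and 1.63. The call of SNHG7 was lost in Nalm6 and SUPB15 without any single treated library, in RS411 without untreated C or any treated library, and in DND41 without treated B or C.

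**Figure D2:**
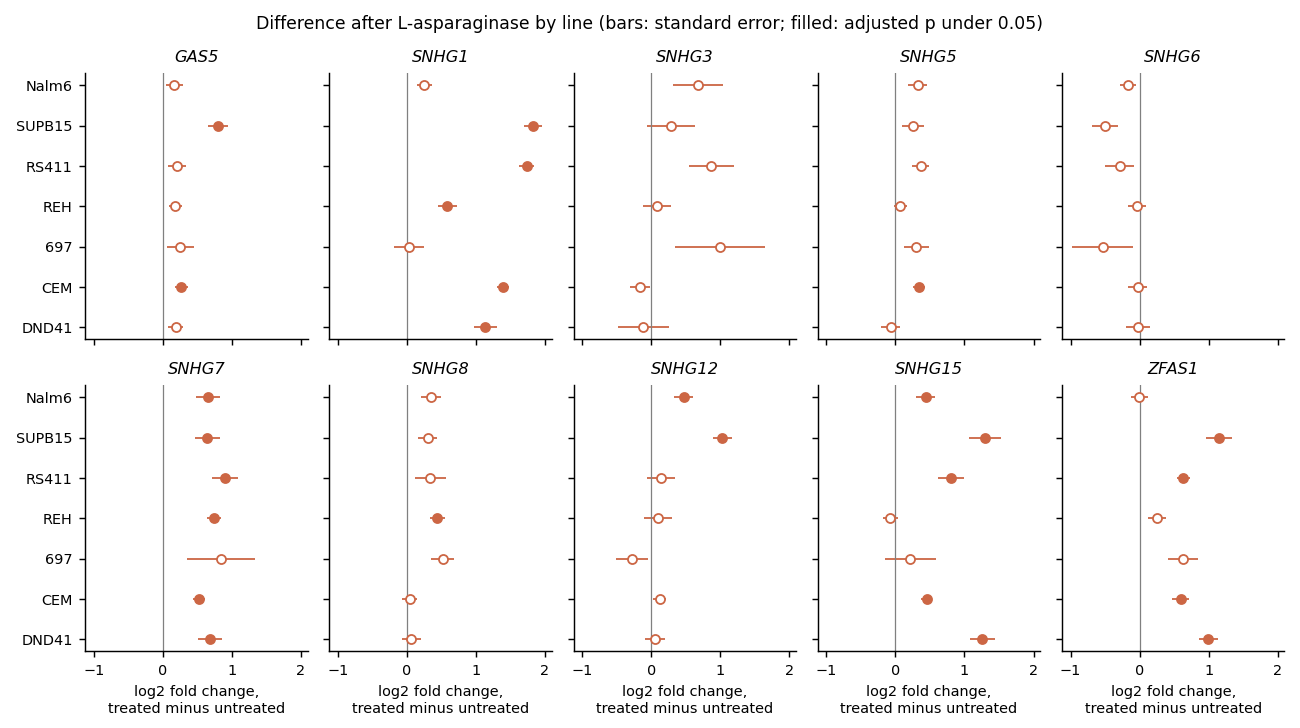
Log2 fold change (treated minus untreated, with its standard error) of each host gene in each line, filled where the edgeR adjusted p was under 0.05. SNHG1 ranges from 0.03 in 697 to 1.82 in SUPB15, while SNHG7 is higher by a similar amount in all 7 lines.

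GAS5 and SNHG12 had their highest ratio in SUPB15. There, GAS5 was at 238, 265 and 270 CPM untreated and 405, 415 and 544 treated (ratio 1.76, log2 0.80 ± 0.14, and 0.66 ± 0.14 without treated C, its highest library). In the other 6 lines the GAS5 ratio was between 1.10 and 1.20, and its call in CEM (log2 0.27 ± 0.094) was lost without untreated A or B, without treated B or C and with the size factors of DESeq2. SNHG12 in SUPB15 was at 43.3, 40.9 and 44.1 CPM untreated and 75.5, 86.9 and 103 treated (ratio 2.07, log2 1.03 ± 0.14, and 0.91 ± 0.14 without treated C). In Nalm6 its ratio was 1.36, and its call there was lost without untreated B or any single treated library. Elsewhere the ratio was between 0.828 and 1.09, and SNHG12 was called in REH without untreated A.

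SNHG5 and SNHG8 were higher by small steps. The SNHG5 ratio was 1.21 to 1.28 in Nalm6, SUPB15, RS411, 697 and CEM, 1.02 in REH and 0.936 in DND41. CEM, at 118, 112 and 135 CPM untreated and 154, 147 and 160 treated, was its 1 call (log2 0.35 ± 0.088), lost without untreated B. Without untreated A it was called in RS411. SNHG8 was highest in ratio in 697 (104, 124 and 135 CPM against 167, 194 and 163, ratio 1.44) and REH (82.4, 78.8 and 83.6 against 95.4, 102 and 125, ratio 1.32, log2 0.44 ± 0.11), where its call was lost without untreated B or treated C. In CEM and DND41 the SNHG8 ratio was 1.02.

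SNHG3 and SNHG6 were not called by edgeR in any line with all libraries. SNHG3 was called higher in RS411 by DESeq2, and by edgeR without untreated B. It had the largest spread within groups of the 10 hosts, with a pooled SD of 0.70 on the log2 scale. In 697 the untreated SNHG3 values were 128, 1221 and 706 CPM and the treated ones 1306, 1522 and 1243. The first untreated library held 13.3% of the mean SNHG3 level of the other two in 697, 33.6% in Nalm6, 34.7% in SUPB15, 43.6% in DND41 and 52.2% in RS411. SNHG6 went the opposite way in 3 of these libraries, with 284% in 697 (711 CPM against 266 and 235), 165% in RS411 and 139% in SUPB15. The mean of SNHG6 was lower after treatment in all 7 lines (ratios 0.704 to 0.973), with overlapping groups throughout, and in 697 the ratio was 1.14 without the first untreated library.

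**Figure D3:**
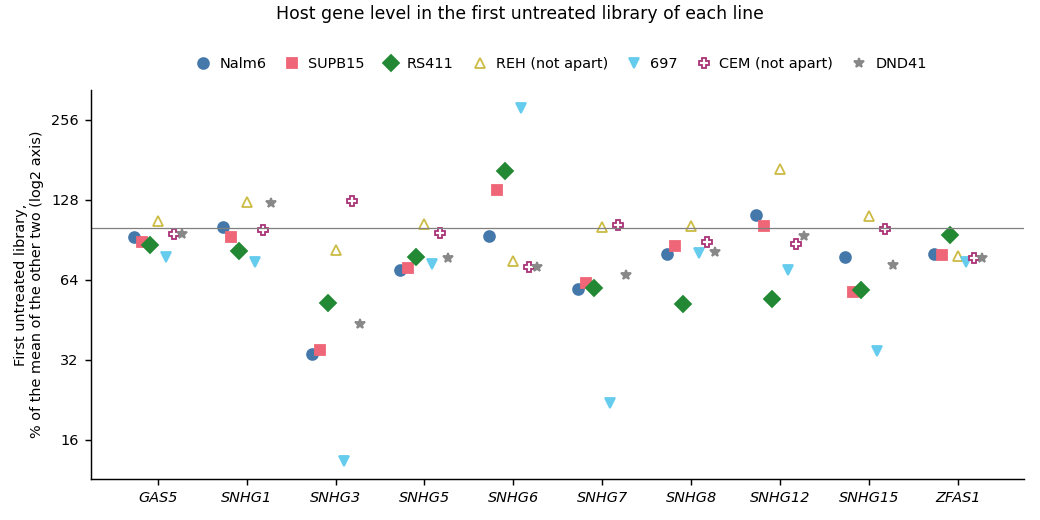
Level of each host gene in the first untreated library of a line as a percentage of the mean of the other two untreated libraries (log2 axis), by line, filled for the 5 lines whose first library stands apart. SNHG3 is lowest, at 13.3% in 697, SNHG7 is at 21.9% there, and SNHG6 reaches 284%.

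SNHG3 moved with the share of small noncoding RNA in a library. The share of counts taken by RN7SK, RN7SL1, RPPH1, RMRP and SNORD3A was 3.35% in the first untreated library of 697 and 12.1% and 7.87% in the others of that group. In DND41 the share was 5.63% in untreated A and 5.77% in treated A, the lowest of each group. Values of DND41 without the first untreated library keep treated A. With both quantities on a log2 scale and taken as deviations from the group mean, SNHG3 had r = 0.94 (Spearman's rho 0.92) with this share over the 42 libraries, 0.92 without the 2 libraries farthest from the median share and 0.87 over the 37 libraries without the first untreated ones. Over 20978 genes the median of that r was 0.04, with quartiles of -0.27 and 0.36, and SNHG3 had the highest of all. SNHG7 had r = 0.84, SNHG15 0.77, ZFAS1 0.75 and SNHG5 0.75, and these were 0.64, 0.40, 0.68 and 0.36 over the 37. GAS5 had 0.58 and SNHG8 0.60, against 0.38 and 0.47 over the 37. SNHG6 went from -0.21 over the 42 libraries to 0.57 over the 37. SNHG1 had 0.16 and SNHG12 0.27, against -0.01 and 0.06 over the 37. The relation was chosen after the values were seen and is given without a p. Both quantities are shares of the same library. The group mean of the small RNA share was higher after treatment in 6 of the 7 lines (from 7.77 ± 4.37% to 12.4 ± 0.852% in 697, SD, n = 3), and its part in the levels of the hosts was not tested.

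In the mean response of the 7 lines, from 1 model of all 42 libraries, 8 of the 10 hosts were called higher and 0 lower, beside 17.6% of 20983 genes called higher and 19.4% called lower. Nothing is read from this count, since the contrast chose the genes. The mean log2 fold changes were 0.98 ± 0.056 for SNHG1, 0.70 ± 0.11 for SNHG7, 0.61 ± 0.094 for SNHG15, 0.59 ± 0.066 for ZFAS1, 0.28 ± 0.046 for GAS5, 0.28 ± 0.067 for SNHG8, 0.22 ± 0.075 for SNHG12 and 0.21 ± 0.055 for SNHG5. SNHG3 had 0.36 ± 0.18 and SNHG6 -0.24 ± 0.099. Without the first untreated libraries these last 2 were 0.12 ± 0.11 and -0.08 ± 0.063, SNHG7 was 0.54 ± 0.046 and SNHG5 0.13 ± 0.038. SNHG12 was 0.20 ± 0.080 and not called once treated SUPB15 C, REH A and RS411 B were left out. It was not called either without Nalm6 (0.20 ± 0.083) or without SUPB15 (0.09 ± 0.084). With the replicate as a block SNHG3 was 0.47 ± 0.16 and called. SNHG6 was called lower by DESeq2 (-0.25 ± 0.11) and was the 1 host lower at an unadjusted p under 0.05 in edgeR.

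The lines in which SNHG1 differed most were those with little ASNS before treatment. Untreated ASNS was 1.26 ± 0.277 CPM in SUPB15, 1.35 ± 0.122 in RS411, 1.70 ± 0.284 in DND41 and 15.8 ± 1.33 in CEM (SD, n = 3 each), and the SNHG1 ratios there were 3.59, 3.29, 2.16 and 2.60. It was 44.6 ± 6.78 CPM in 697, 69.0 ± 9.16 in REH and 73.7 ± 32.8 in Nalm6, and the SNHG1 ratios were 1.03, 1.47 and 1.17. All 12 untreated libraries of the first 4 lines had less ASNS than any of the other 9. The SNHG15 ratio was 1.36 to 2.49 in the first 4 lines and 0.924 to 1.32 in the other 3. For ZFAS1 the ranges were 1.50 to 2.25 and 0.974 to 1.55, with 697 at 1.55. In each of the hosts other than SNHG1, SNHG15 and ZFAS1, the ratios of both sets of lines overlapped. SNHG8 had 1.44 in 697 and 1.32 in REH against 1.02 in CEM and in DND41, and SNHG7 had 1.79 in 697 against 1.43 in CEM. After treatment ASNS was at most 2.43 CPM on average in SUPB15, RS411 and DND41 but 88.3 ± 15.2 CPM in CEM, 5.57 times its untreated level. ASNS and the hosts set beside it were chosen after the values were seen, over 7 lines, and nothing was tested.

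**Figure D4:**
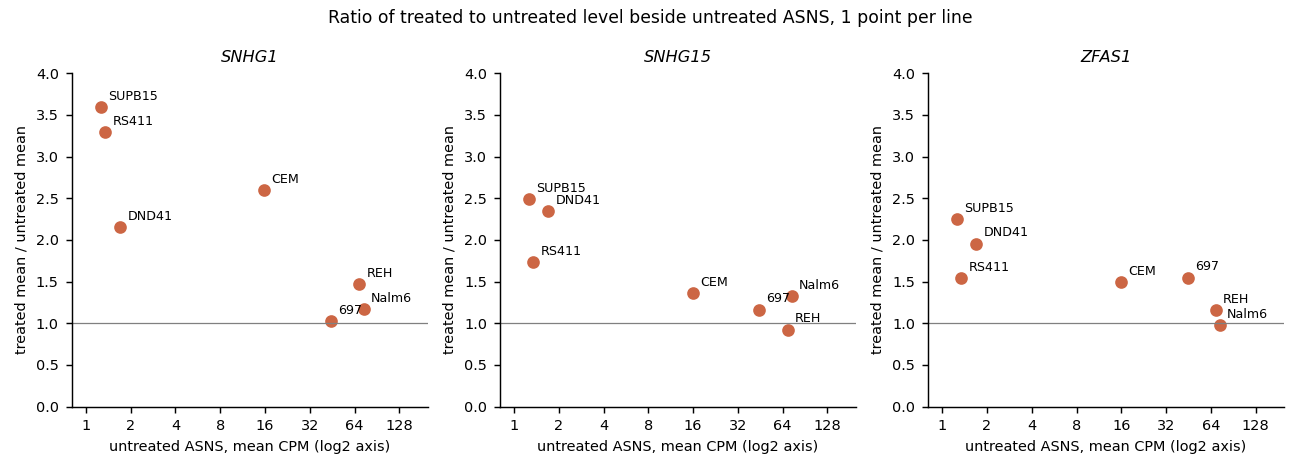
Ratio of treated to untreated mean level of SNHG1, SNHG15 and ZFAS1 (linear axis from 0) against the untreated mean level of ASNS in CPM (log2 axis), 1 point per line. The 4 lines with at most 15.8 CPM of ASNS have SNHG1 ratios of 2.16 to 3.59 and the 3 lines with at least 44.6 CPM have 1.03 to 1.47.

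The lists that follow are read beside the 17.6% of all genes that rose, the 19.4% that fell and the median log2 fold change of -0.02 over all genes in the mean response. Of 19 other noncoding snoRNA hosts, 17 were tested, and 4 rose, 3 fell and 10 did not pass, which is near those shares, with a median of 0.04. Among those that did not pass, SNHG18 (SE 763) and SNHG22 (SE 24.7) had no usable estimate. C6orf48, the host also named SNHG32, rose by 0.66 ± 0.073 (edgeR adjusted p = 2.64e-09) and SNHG17 by 0.33 ± 0.075 (0.000489). DANCR, the differentiation antagonizing noncoding RNA, fell by 0.54 ± 0.073 (1.44e-07) and SNHG4 by 0.44 ± 0.12 (0.00433). Without DND41 SNHG4 was at -0.29 and did not pass. The list had 5 genes that fell without the first untreated libraries.

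Of 25 protein-coding hosts, 3 rose and 8 fell, with a median of 0.01. With the replicate as a block 6 rose and 9 fell, and without SUPB15 1 rose. HSPA8, the constitutive heat shock protein 70 chaperone, fell by 1.02 ± 0.089 (edgeR adjusted p = 1.16e-11), NCL, nucleolin, by 0.42 ± 0.12 (0.00413) and GNL3, nucleostemin, by 0.36 ± 0.070 (8.41e-05), while TNPO2, a nuclear import receptor, rose by 0.36 ± 0.066 (2.86e-05). Without the first untreated libraries NCL was at -0.11 and did not pass.

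The list of TOP genes outside the ribosomal proteins holds genes of translation factors and others that were taken as TOP genes, and 5 of them are also protein-coding hosts. Of 17 tested, 11 fell and 0 rose, with a median of -0.18. At an unadjusted p under 0.05 in edgeR, and by DESeq2, 0 were higher as well. With the replicate as a block 12 fell and 1 rose, EIF4A2 at 0.14 ± 0.053 (edgeR adjusted p = 0.0442), a gene named after its value was seen. VIM, vimentin, fell by 0.50 ± 0.048 (edgeR adjusted p = 8.59e-11), EIF4B, an initiation factor, by 0.50 ± 0.052 (8.33e-10), HNRNPA1, an RNA-binding protein, by 0.37 ± 0.074 (0.00011) and EIF3E, a subunit of initiation factor 3, by 0.36 ± 0.058 (4.64e-06). Fewer passed without Nalm6 (7) or without SUPB15 (6). The annotation gave 14 of the 18 listed genes a start with a C and at least 4 more pyrimidines.

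Of 18 nonsense-mediated decay factors, 7 rose and 1 fell, with a median of 0.15. SMG9, a regulator of the SMG1 kinase, rose by 0.74 ± 0.042 (edgeR adjusted p = 3e-16), DHX34, a helicase that acts with UPF1, by 0.45 ± 0.075 (7.21e-06) and UPF1, the central helicase of the pathway, by 0.37 ± 0.074 (0.000108). NBAS fell by 0.34 ± 0.040 (1.51e-08). Without the first untreated libraries 14 rose and 2 fell. As background, these factors are themselves often targets of the pathway, and any part of that in these values was not tested.

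Of 16 protein-coding genes listed as decay targets, 11 rose and 1 fell, with a median of 0.46. GABARAPL1 (SE 1812) and RP9P (SE 441) had no usable estimate, and their values enter this median. DDIT3 rose by 2.28 ± 0.078 (edgeR adjusted p = 7.66e-22), SLC7A11, the cystine transporter, by 2.14 ± 0.13 (3.53e-15), ATF3 by 1.20 ± 0.12 (2.63e-10) and IFRD1 by 1.19 ± 0.065 (1.32e-16). DDIT3, ATF3 and SLC7A11 are also known targets of ATF4, so the rise of this list cannot be told apart from the amino acid response.

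Of 16 snoRNP proteins and assembly factors, which bind snoRNAs or build them into particles, 3 rose and 2 fell, with a median of 0.02. ZNHIT6, an assembly factor of box C/D particles, rose by 0.50 ± 0.068 (edgeR adjusted p = 1.65e-07), SHQ1, a chaperone of dyskerin, by 0.20 ± 0.048 (0.000872) and NOP56, a core box C/D protein, by 0.18 ± 0.051 (0.0037). NAF1, an assembly factor of box H/ACA particles, fell by 0.28 ± 0.063 (0.000476). Without the first untreated libraries 6 rose and 3 fell. NOP56 was 0.11 without SUPB15 and 0.13 without DND41 and did not pass in either, and the count was then 3 in both. The number that fell was 1 without SUPB15, CEM or DND41 and 1 without a filter on low counts.

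**Figure D5:**
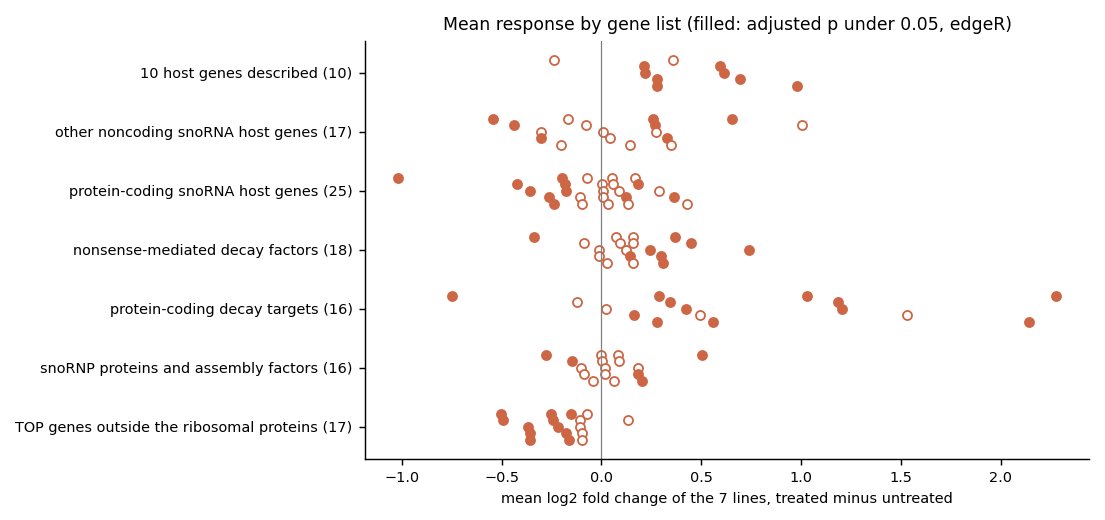
Mean log2 fold change of the 7 lines (treated minus untreated), 1 point per gene, for the 10 host genes and for 6 gene lists, filled where the edgeR adjusted p was under 0.05. The 10 hosts run from -0.24 to 0.98, 11 of 17 TOP genes are called lower and 11 of 16 decay targets are called higher. The points of GABARAPL1, RP9P, SNHG18 and SNHG22 are drawn although these genes had no usable estimate.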

How the data were processed

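RNA-seq counts per gene symbol were deposited as 1 table per line. The authors' processing notes name hg19, while aligner, counter, annotation and strand setting were not given in the sources used here. The 7 tables were joined on the symbol after leaving out 8 rows with a repeated name. The members and gene lists were chosen with earlier results of these data known.

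Counts were tested in edgeR 4.0.16 (R 4.3.3) with filterByExpr (minimum count 10), TMM scaling and the quasi-likelihood test, with Benjamini-Hochberg adjustment over all genes tested. Each line was fitted on its 6 libraries, the mean response on all 42 with 1 coefficient per group, and the untreated lines on 21. SE is the absolute log2 fold change divided by the root of F. CPM used the TMM factors of the 42 libraries, and log2 CPM a prior count of 2. Ratios between untreated lines, and the order of neighbours, used the TMM factors of the untreated fit. They can therefore differ slightly from ratios and orders of the printed means. The fits were also run on simulated counts with known changes, drawn independently for each library. Those counts held no deviation shared between libraries and no transcripts of other lines, so they do not test the fits against these. Alternatives were size factors of DESeq2 1.42.0, DESeq2 itself, no filter, no small noncoding RNAs, a replicate block and libraries or lines left out.

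All 10 members were named in each comparison. Of each list, up to 4 genes past an adjusted p of 0.05 were named, by the size of the mean log2 fold change, and for likeness the 5 genes with the highest r among those with a mean log2 CPM of at least 3. No 2 libraries of a group agreed within sampling noise (lowest chi-square per degree of freedom 15.0).

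Replicates carry numbers in the labels, but the columns of 6 lines carry letters that no label gives, so these columns enter as unnumbered replicates of their groups. In SUPB15, RS411, REH, CEM and DND41, same-lettered untreated and treated libraries deviated together. Every correlation was over 0.1 there (lowest 0.15, 0.10, 0.33, 0.17 and 0.35). Such libraries did not deviate together in Nalm6 (lowest 0.05) or by number in 697 (lowest -0.07). In RS411 libraries of unlike letters reached 0.24, above its lowest same-lettered value. The reported fits did not pair libraries, and letters or numbers entered as pairs only under the replicate block.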

Additional observations from a re-analysis of the deposited data

How the results depend on the processing

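The number of hosts that differed between untreated lines was 9 under 27 of the 28 settings, the reported one included, and 8 without untreated B of Nalm6. Neighbouring pairs that differed rose from 12 to 19 without the first untreated libraries. Hosts called after L-asparaginase numbered 1 in Nalm6 without a filter on low counts. Leaving out 1 library at a time, this number ran from 0 to 3 in Nalm6, from 1 to 5 in RS411, from 1 to 4 in REH and from 0 to 3 in 697. With the replicate block it was 4 in Nalm6, where the letters do not pair the libraries, 4 in REH and unchanged in number in the other 5 lines. In the mean response the block gave 9 hosts, and under the block no call of a gene named in the text changed but those given there. Without the first untreated libraries 16 decay factors and 9 snoRNP genes were called. The snoRNP count was 3 without SUPB15 and 3 without DND41, and the TOP gene count was 7 without Nalm6 and 6 without SUPB15. The cause was not tested. The other 186 counts under alternatives, of higher and lower calls together, stayed within 1.5 times the reported one, while 13 of 168 counts of a list in 1 direction moved further, those named beside each list. No mean log2 fold change of a called host or a named gene changed sign. Depth of at least 15.1 M counts gave every host at least 343 counts in every library, so the spread between libraries and not counting limits these values.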
